A study of Mus musculus with 19 samples.

Results

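The 38 protein-coding Hox genes of the 4 mouse Hox clusters were followed through chromatin immunoprecipitation sequencing (ChIP-seq) of embryonic stem cells (ESCs) with and without DNMT1. They were taken by position on the NCBIM37 genome build, as the 2 kb tiles of a genome-wide table that lie in HoxA (chr6:52100001-52220000), HoxB (chr11:96040001-96240000), HoxC (chr15:102740001-102880000) and HoxD (chr2:74490001-74610000), with the listed genes inside them. The 4 regions hold 290 of the 1327469 tiles, of which 60 are in HoxA, 100 in HoxB, 70 in HoxC and 60 in HoxD. The 38 genes were compared with all 23653 annotated protein-coding and lincRNA genes. No measured value served as a criterion, but the choice was made with earlier results of these data known.

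The cells were mouse ESCs whose Dnmt1 alleles carry loxP sites, and the gene was deleted by tamoxifen-induced Cre recombinase. The labels name the genotypes Wildtype and Dnmt1 KO, and the titles name the same samples control and DNMT1KO, which are the names used here. The labels give the strain as E14, while the methods of the study describe the line as C57BL/6. H3K27me3, H3K9me2 and H3K9me3 were each profiled at day 4 in 1 control and 1 DNMT1KO library and at day 8 in 2 control and 2 DNMT1KO libraries, and 1 input library of control cells completed the 19 libraries. Nothing states that the libraries of a group came from separate cultures. The methods of the study give a single measurement as the reason why it called no significant ChIP-seq differences. The p-values given here therefore measure the spread between these libraries, which may be technical. The labels also list 4 catalogue entries for the H3K27me3 antibody over its 6 libraries, a different one for each day 8 DNMT1KO library and for the second day 8 control library, where the methods name 1. Taken as written, antibody entry and genotype cannot be told apart at day 8, whereas both day 4 libraries carry the same entry.

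Hox genes encode homeodomain transcription factors that give cells their identity along the body axis, and their order in a cluster follows the order of the body regions they pattern. In ESCs the clusters are silent and are textbook targets of Polycomb: PRC2 writes H3K27me3 over them and PRC1 reads it. H3K9me2 and H3K9me3 mark other kinds of silent chromatin, H3K9me2 broad gene-poor domains and H3K9me3 mainly repeats and constitutive heterochromatin. DNMT1 copies DNA methylation at CpG sites after replication, and CpG-rich promoters such as those of most Hox genes are normally unmethylated.

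The ChIP libraries held 5669098 to 26181489 reads in tiles, and the input held 19010249. The shallowest library was the first day 8 DNMT1KO library of H3K9me3, with a median of 3 reads per tile. Deletion was looked at in Dnmt1 itself, in the tile with the lowest ratio of DNMT1KO to control reads among the 24 tiles of the gene (chr9:20744001-20746000). There the 6 day 8 DNMT1KO libraries held 1 read together against 49 in the 6 day 8 control libraries. At day 4 the 3 DNMT1KO libraries held 9 reads against 23. In this tile DNMT1KO reads were thus almost absent at day 8, and some remained at day 4. Because the tile was chosen by that ratio, its counts are a description and not an independent check of the labels.

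The sequences just upstream of the annotated starts are shown for the member of each cluster whose H3K27me3 promoter level differed most, and for the one whose level differed least, between DNMT1KO and control at day 8, because these pairs span the range described below. Each run is the 200 bases before the gene record's start, 5′ to 3′ on the gene's strand, with every CG dinucleotide, the site at which DNMT1 acts, in capitals. Hoxa13 (chr6:52210875-52211074, minus strand), Hoxb7 (chr11:96145371-96145570), Hoxc5 (chr15:102844046-102844245) and Hoxd1 (chr2:74600837-74601036) differed most. Hoxa5 (chr6:52154587-52154786, minus strand), Hoxb13 (chr11:96055430-96055629), Hoxc13 (chr15:102751334-102751533) and Hoxd4 (chr2:74559835-74560034) differed least.
Hoxa13: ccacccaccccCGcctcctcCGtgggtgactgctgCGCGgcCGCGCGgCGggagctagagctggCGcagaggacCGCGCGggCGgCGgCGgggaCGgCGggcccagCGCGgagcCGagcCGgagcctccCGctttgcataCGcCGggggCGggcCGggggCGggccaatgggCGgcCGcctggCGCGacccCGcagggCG
Hoxa5: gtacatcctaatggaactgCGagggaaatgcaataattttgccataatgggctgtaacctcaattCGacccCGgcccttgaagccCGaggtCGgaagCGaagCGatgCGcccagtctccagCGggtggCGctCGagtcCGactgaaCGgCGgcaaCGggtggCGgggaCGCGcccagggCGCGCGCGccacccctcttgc
Hoxb7: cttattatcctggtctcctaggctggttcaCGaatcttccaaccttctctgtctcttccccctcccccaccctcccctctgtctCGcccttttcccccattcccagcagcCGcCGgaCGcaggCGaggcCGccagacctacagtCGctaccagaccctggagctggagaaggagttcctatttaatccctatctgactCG
Hoxb13: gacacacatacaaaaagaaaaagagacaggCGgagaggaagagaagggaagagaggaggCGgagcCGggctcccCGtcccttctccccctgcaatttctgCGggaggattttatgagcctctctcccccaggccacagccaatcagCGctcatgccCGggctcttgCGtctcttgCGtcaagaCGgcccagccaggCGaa
Hoxc5: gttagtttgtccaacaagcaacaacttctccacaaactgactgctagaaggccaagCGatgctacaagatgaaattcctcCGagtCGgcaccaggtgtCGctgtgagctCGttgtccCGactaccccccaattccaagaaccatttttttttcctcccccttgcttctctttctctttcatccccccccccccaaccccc
Hoxc13: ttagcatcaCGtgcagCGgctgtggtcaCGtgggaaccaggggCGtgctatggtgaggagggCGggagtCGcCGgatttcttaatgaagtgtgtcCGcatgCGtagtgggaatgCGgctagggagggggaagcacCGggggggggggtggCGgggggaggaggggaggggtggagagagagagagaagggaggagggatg
Hoxd1: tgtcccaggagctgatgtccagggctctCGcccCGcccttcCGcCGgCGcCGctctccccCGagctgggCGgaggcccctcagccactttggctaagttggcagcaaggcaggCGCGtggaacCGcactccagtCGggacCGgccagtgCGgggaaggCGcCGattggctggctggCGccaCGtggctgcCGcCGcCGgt
Hoxd4: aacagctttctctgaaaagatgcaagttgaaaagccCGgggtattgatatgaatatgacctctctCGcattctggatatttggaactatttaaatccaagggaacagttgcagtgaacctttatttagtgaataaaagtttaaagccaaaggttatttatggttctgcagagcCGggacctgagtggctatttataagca
The runs hold between 3 CG (Hoxd4) and 33 CG (Hoxa13). Searched on both strands, which is the same for this palindrome, CG was present in 90.6% of the 200-base runs upstream of all 23653 genes, with a median of 7 per run. The pairs were not ordered by their CG count: Hoxb13 with 11 and Hoxc13 with 12 hold more than their partners Hoxb7 with 9 and Hoxc5 with 6. The Hoxb7 record starts past the start of Hoxb8, and a second annotated start of Hoxb7 lies 4.46 kb away. Its run may therefore hold sequence of the Hoxb8 gene.

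H3K27me3 covered all 4 clusters, and neither H3K9 mark did. Levels are given as log2 of reads per tile relative to an even spread over the genome, minus the same value in the input, so that 0 is the input level. In the 3 control libraries of both days the clusters together stood at 4.21 ± 0.21 for H3K27me3 (mean ± SD, n = 3 libraries), at −1.61 ± 0.11 for H3K9me2 and at −0.91 ± 0.13 for H3K9me3. H3K27me3 was thus 18.6-fold over input, whereas H3K9me2 was at 0.327 and H3K9me3 at 0.532 of the input level. A level is an average over the cells of a sample, so a mark lost in some cells and a mark lowered in every cell cannot be told apart, and since each library is scaled to its own reads the values are shares and not amounts of a mark.

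The H3K27me3 level was similar in HoxA (4.41 ± 0.24, n = 3 control libraries), HoxC (4.31 ± 0.21) and HoxD (4.29 ± 0.20), and lower in HoxB (3.95 ± 0.21). HoxB had the lowest level of the 4 clusters in each of the 6 H3K27me3 libraries, while HoxA, HoxC and HoxD differed by less than the spread between control libraries. Its 36 tiles between Hoxb13 and Hoxb9 carried most of that difference: they stood at 2.76 ± 0.07, and HoxB without them stood at 4.34 ± 0.24. Of the 58 windows of 10 kb that make up the clusters, 54 were among the 1% of all windows with the most H3K27me3 in the day 4 control library and all 58 were among the top 5%.

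**Figure D1:**
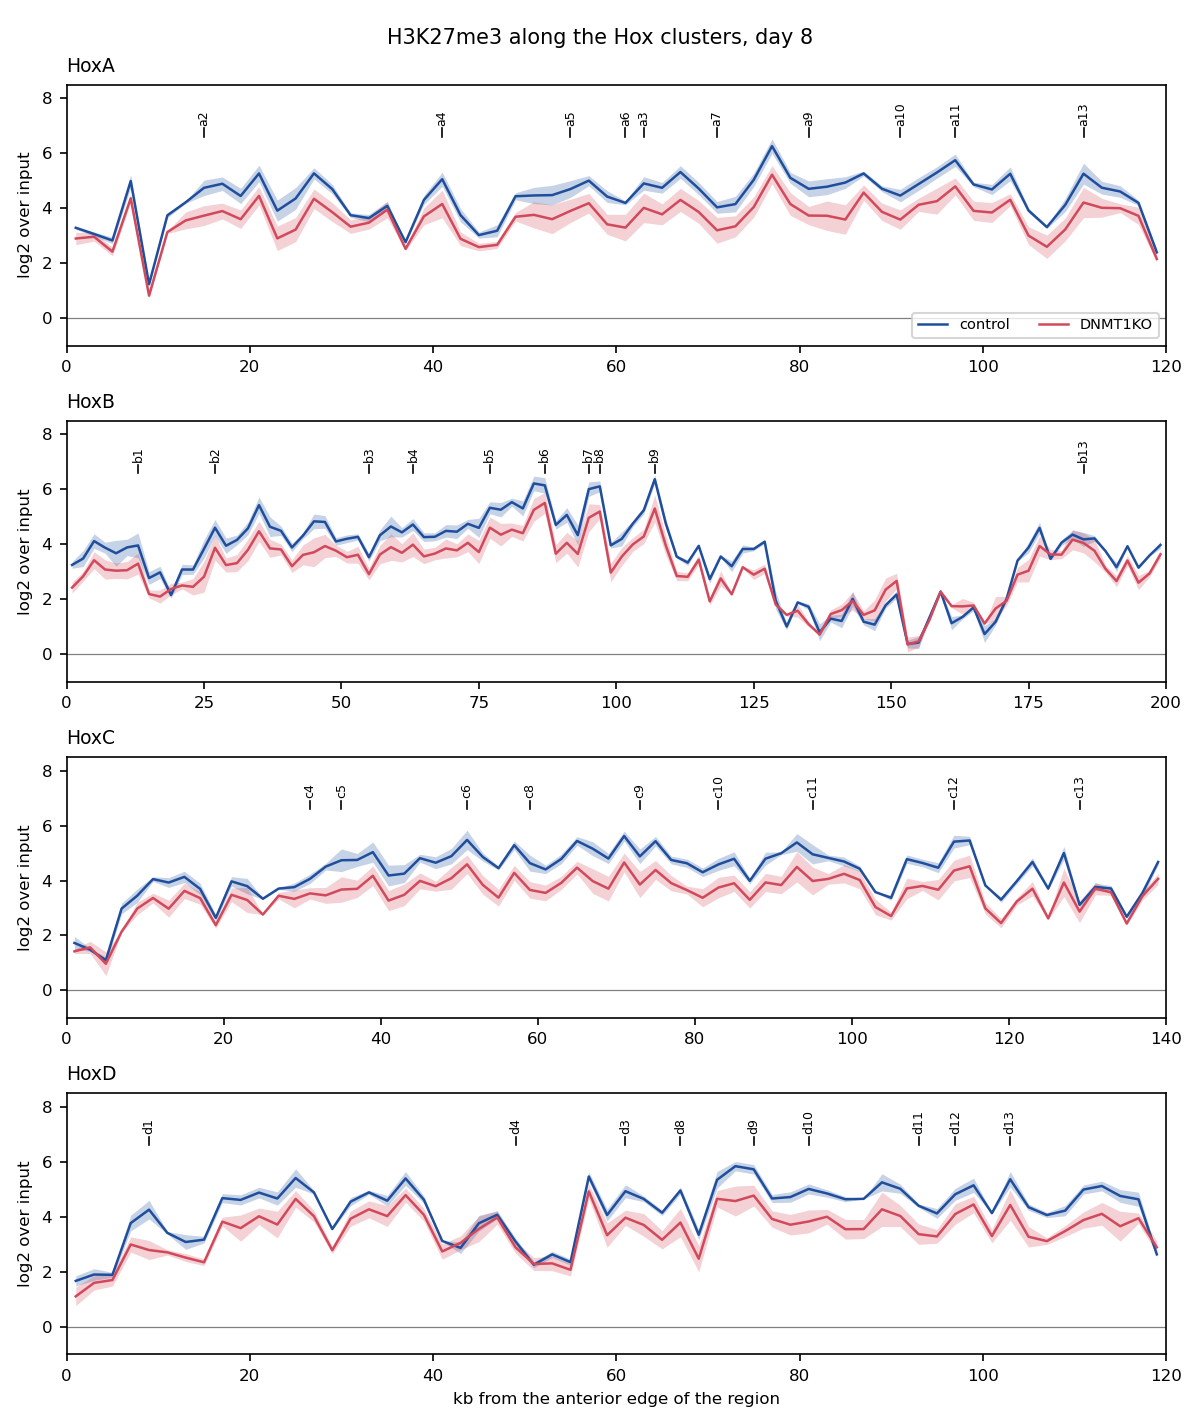
H3K27me3 along the 4 Hox clusters at day 8, one panel per cluster, as log2 over input per 2 kb tile (vertical axis) against distance in kb from the anterior edge (horizontal axis), with control in blue, DNMT1KO in red, lines for the mean and shading for the range of the 2 libraries. Gene names stand at the start of the gene record, which for Hoxa3 lies between Hoxa6 and Hoxa7 and for Hoxd3 between Hoxd4 and Hoxd8, and the red line runs below the blue line over most of each cluster and meets or passes above it in the low stretch of HoxB and around Hoxd4.

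In DNMT1KO cells the H3K27me3 level of the Hox clusters was lower than in control cells at day 8, in both replicates and in every cluster. Over the 4 clusters the 2 control libraries stood 22-fold and 17-fold over input and the 2 DNMT1KO libraries 14-fold and 9.04-fold, so the groups did not overlap. The difference was −0.65 on the log2 scale in replicate 1 and −0.91 in replicate 2, a mean of −0.78 ± 0.18 (SD over 2 pairs), or 1.72-fold lower. The 95% exact binomial counting limits of the 2 values were −0.67 to −0.64 and −0.93 to −0.90, which cover counting error only, so the replicates differed from each other by more than counting error. An exact permutation test of 2 against 2 libraries cannot give a p below 0.33, and none is given for a single region.

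At day 4 the difference was smaller, −0.17 with counting limits of −0.18 to −0.15, from 17-fold over input in the control library and 15.2-fold in the DNMT1KO library. With 1 library per group at day 4 this value has no replicate check. It lay below the day 8 difference of both replicates in size, and the change between the days was not tested.

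The 4 clusters differed between genotypes by like amounts. HoxA differed by −0.70 and −0.96 at day 8 (mean −0.83 ± 0.19), HoxC by −0.70 and −0.94 (−0.82 ± 0.17), HoxD by −0.65 and −0.98 (−0.81 ± 0.23) and HoxB by −0.59 and −0.81 (−0.70 ± 0.15). HoxB had the smallest difference in both replicates, but the gap between the clusters was smaller than the gap between the replicates. At day 4 the differences were −0.17 in HoxA, −0.13 in HoxB, −0.18 in HoxC and −0.19 in HoxD. Without the stretch between Hoxb13 and Hoxb9, the HoxB difference at day 8 was −0.75.

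**Figure D2:**
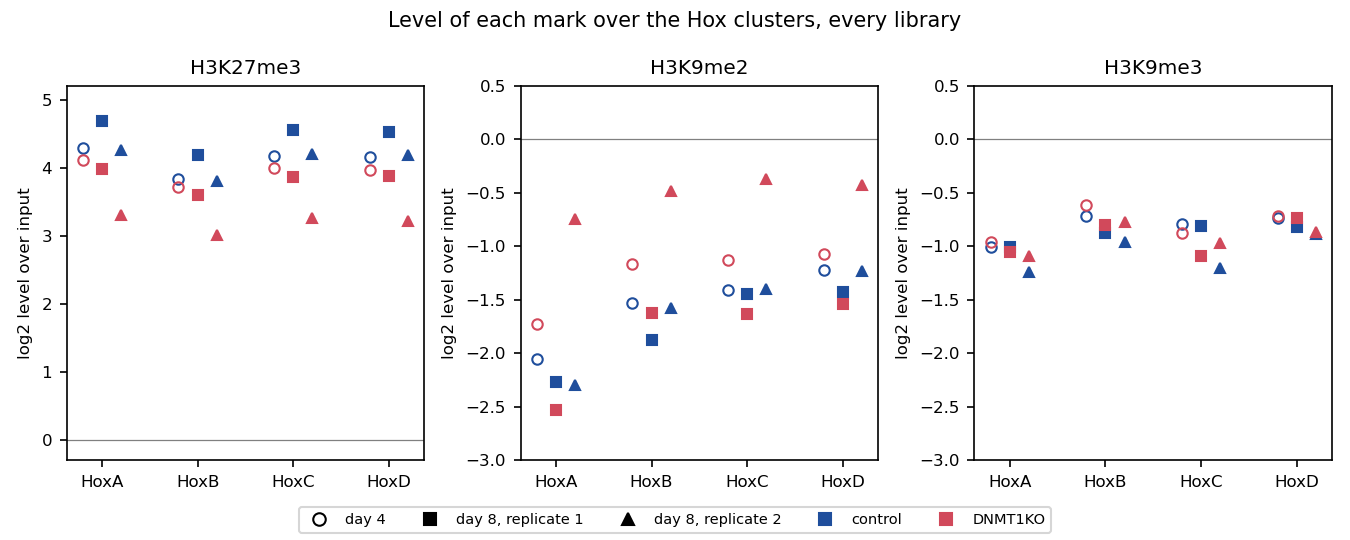
Level of each histone mark in each library over the 4 Hox clusters, as log2 over input (vertical axis, 0 is the input), with control libraries in blue and DNMT1KO libraries in red at day 4 and day 8. Every H3K27me3 point lies above 2.9 and every H3K9me2 and H3K9me3 point below 0, and the day 8 DNMT1KO points of H3K27me3 lie below both day 8 control points in each cluster.

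The lower level in DNMT1KO reached past 1 edge of HoxA and of HoxC, and was smaller or not seen next to HoxB and HoxD. In the 100 kb next to the posterior end of HoxA, where the control level was 2.59 ± 0.20, the day 8 difference was −0.46 ± 0.17. The day 8 groups overlapped there, with the first DNMT1KO library at 2.47 and the second control library at 2.43. In the 100 kb next to the anterior end of HoxC, with a control level of 2.71 ± 0.12, the difference was −0.35 ± 0.07 and the groups were apart. The anterior flank of HoxA, close to input at 0.22 ± 0.08, went the other way by 0.25 ± 0.05, and the anterior flank of HoxD, at 0.20 ± 0.03, differed by −0.14 ± 0.02. The flanks of HoxB, the posterior flank of HoxC and the posterior flank of HoxD differed by −0.05 to 0.04 on average.

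Along the clusters, 258 of 290 tiles were lower in DNMT1KO in both day 8 replicates and 12 were higher in both, 10 of them in HoxB and 2 in HoxD. Of all 1260234 tiles with a read, 310327 were lower in both and 401039 were higher in both. In HoxA all 60 tiles were lower in both, in HoxC 63 of 70, in HoxD 56 of 60 and in HoxB 79 of 100. In 230 of the 290 tiles both DNMT1KO libraries lay below both control libraries, against 16.8% of all tiles with a read. In 6 tiles, all in HoxB, both lay above, as they did in 279835 of the 1260234 tiles with a read. The differences were moderate, and 5 of the 290 tiles were lower by 2-fold or more in both replicates, as were 20544 of the 1260234 tiles with a read.

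No Hox tile or window passed the genome-wide test. The limma test of 2 against 2 libraries with Benjamini-Hochberg adjustment called 0 of 290 Hox tiles for H3K27me3 (0% of all tiles tested), with a lowest adjusted p of 0.586. Of the 290 tiles, 50 had an unadjusted p under 0.05 with a lower level, against 3.89% of all tiles. It called 0 of 58 Hox windows (0.00393% of all 10 kb windows), with a lowest adjusted p of 0.224, and 44 of the 58 had an unadjusted p under 0.05, all lower, against 6.37% of all windows. limma with a variance trend also called 0 Hox tiles and 0 Hox windows, where it called 0.244% of all tiles in either direction and 0.831% of all windows as lower. limma-voom on the recovered reads called 1 Hox tile and 0 Hox windows, against 0.431% of tiles and 0.987% of windows. Leaving out the first DNMT1KO library, which had the smaller difference, gave 32 called Hox windows, all lower, where 1.77% of all windows were called lower, and leaving out any other library gave 0.

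The tile that differed most was the start of Hoxd1 (chr2:74600001-74602000), the tile that limma-voom called (adjusted p = 0.041). Its H3K27me3 reads numbered 343 and 230 in control and 121 and 97 in DNMT1KO at day 8, a difference of −1.47 ± 0.01. In HoxA the largest difference was in a tile within Hoxa10 (chr6:52184001-52186000, −1.35 ± 0.46), in HoxB within Hoxb3 (chr11:96194001-96196000, −1.13 ± 0.36) and in HoxC within Hoxc9 (chr15:102812001-102814000, −1.18 ± 0.27). These 4 tiles hold 82 to 143 CpG sites, where the median Hox tile holds 36.

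The tiles at the other end of the range lay outside the member genes. In HoxB the tile chr11:96078001-96080000 had 51 and 39 reads in control and 67 and 80 in DNMT1KO at day 8, a difference of 0.62 ± 0.26 with the DNMT1KO libraries above both controls. In HoxD the posterior-most tile (chr2:74490001-74492000) differed by 0.26 ± 0.20. In HoxC the tile chr15:102876001-102878000 differed by 0.09 ± 0.39 with opposite signs in the 2 replicates, and in HoxA the tile chr6:52102001-52104000 differed by −0.10 ± 0.13.

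The HoxB tile belongs to a stretch of 40 kb that stood apart. The 4 windows of 10 kb from chr11:96070001 to chr11:96110000, between Hoxb13 and Hoxb9, hold no member gene and had the lowest H3K27me3 level of the cluster, 1.39 ± 0.08 (n = 3 control libraries). Over these windows the reads were 978 in control and 906 in DNMT1KO at day 4, 836 and 1040 in replicate 1 at day 8, and 853 and 1068 in replicate 2. Summed over the 4 windows the level was therefore not lower in DNMT1KO, with differences of 0.13 at day 4 and of 0.36 and 0.09 at day 8. Of these windows chr11:96100001-96110000 differed by −0.03 and −0.05 at day 8. The windows were picked by their low level in the day 8 control libraries, which also enter the day 8 differences. On both sides the level was lower in DNMT1KO again: the next window toward Hoxb9 (chr11:96110001-96120000) differed by −0.81, with the lowest adjusted p of any Hox window, and the window with Hoxb13 by −0.36.

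HoxD held a smaller interruption. The window with the start of Hoxd4 (chr2:74560001-74570000) differed by −0.01 and −0.28 in the 2 replicates, a mean of −0.14 ± 0.19. Its neighbours inside the long Hoxd3 record differed by −0.48 on the posterior side and by −0.59 on the anterior side. The windows farther out on both sides, from Hoxd8 to Hoxd13 and at Hoxd1, differed by −0.84 to −1.04. In HoxA the window chr6:52130001-52140000 within Hoxa3 and Hoxa4 differed least, by −0.33, and it is also the HoxA window with the fewest CpG sites.

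Within the clusters the difference was larger where more H3K27me3 had been. Across the 290 tiles the day 4 control level and the day 8 difference correlated with Pearson's r of −0.75 and Spearman's rho of −0.66, a description over neighbouring tiles of the same libraries that are not independent. The number of CpG sites per tile went with the level (r = 0.48) and with the difference (r = −0.42). In the 71 Hox tiles with under 20 CpG sites the day 8 difference was −0.64 ± 0.16, in the 172 tiles with 20 to 79 sites −0.77 ± 0.18 and in the 47 tiles with 80 or more −0.96 ± 0.25. Outside the clusters only the CpG-richest class was lower: tiles with under 20 sites differed by 0.01 ± 0.03, those with 20 to 79 by 0.07 ± 0.06 and those with 80 or more by −1.05 ± 0.19. A CpG-poor Hox tile thus differed from a CpG-poor tile elsewhere in both its level (3.46 ± 0.13 against −0.24 ± 0.05, n = 3 control libraries) and its difference.

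**Figure D3:**
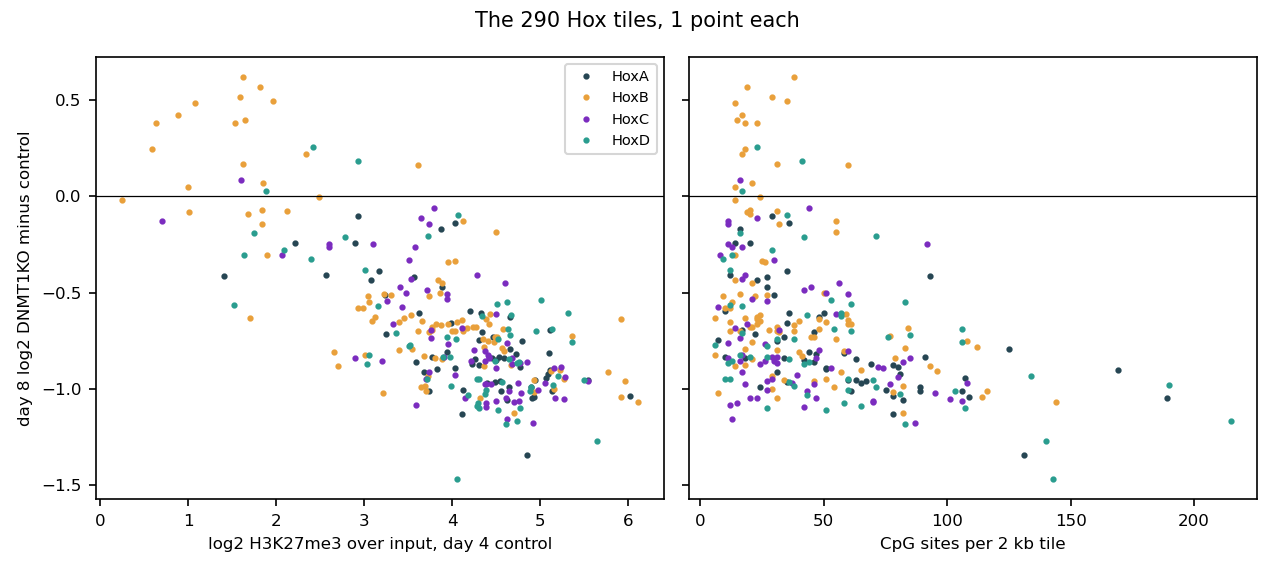
Each point is one 2 kb tile of the Hox clusters, with the mean H3K27me3 difference between DNMT1KO and control at day 8 (log2, vertical axis) against its level over input in the day 4 control library, which did not enter the difference, and against its number of CpG sites (horizontal axes). Points slope downward in both panels, with r = −0.75 against the level and r = −0.42 against CpG sites, and most of the points above 0 sit at low levels.

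The promoters of the member genes were lower in H3K27me3 almost without exception. A promoter was taken as the tiles that overlap the 1 kb upstream of the start of the gene record. In control cells at day 8 all 38 promoters stood 4-fold or more over input (log2 levels of 2.75 to 6.02, median 4.72), as did 4007 of 23342 promoters tested genome-wide. At day 8, 37 of 38 were lower in DNMT1KO in both replicates. In 33 of 38 both DNMT1KO libraries lay below both control libraries, against 42.0% of all promoters. The opposite position held 0 of 38, against 11.9% of all promoters. The promoters whose libraries overlapped were those of Hoxb1, Hoxb6, Hoxb13, Hoxc13 and Hoxd4. The median difference was −0.92 over the 38 promoters and −0.38 over all promoters. Its size depended on the treatment of GC content: set against other promoters of like GC content the member median was −0.42 (−0.05 over all promoters), and set against tiles of like GC content it was −0.87. At day 4, 34 of 38 were lower, with a median of −0.20 against −0.12 over all promoters.

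No member promoter passed the limma test across all promoters (0 of 38, and 0% of all promoters). The lowest adjusted p was 0.178, and 12 members had an unadjusted p under 0.05 with a lower level, against 18.0% of all promoters. After GC correction across promoters 1 member had one, against 8.02% of all promoters. limma with a variance trend called 0 of 38 where it called 5.36% of all promoters in either direction. limma-voom called 1, Hoxd1 (adjusted p = 0.027), where it called 8.56%. Read against these shares, the members were not called more often than promoters at large, while their libraries separated more often. Without the first DNMT1KO library 3 members were called, all lower, where 10.7% of all promoters were called lower, and without any other library 0. They were Hoxd1, Hoxd10 and Hoxa13, of which Hoxd10 is named for this after its values were seen.

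**Figure D4:**
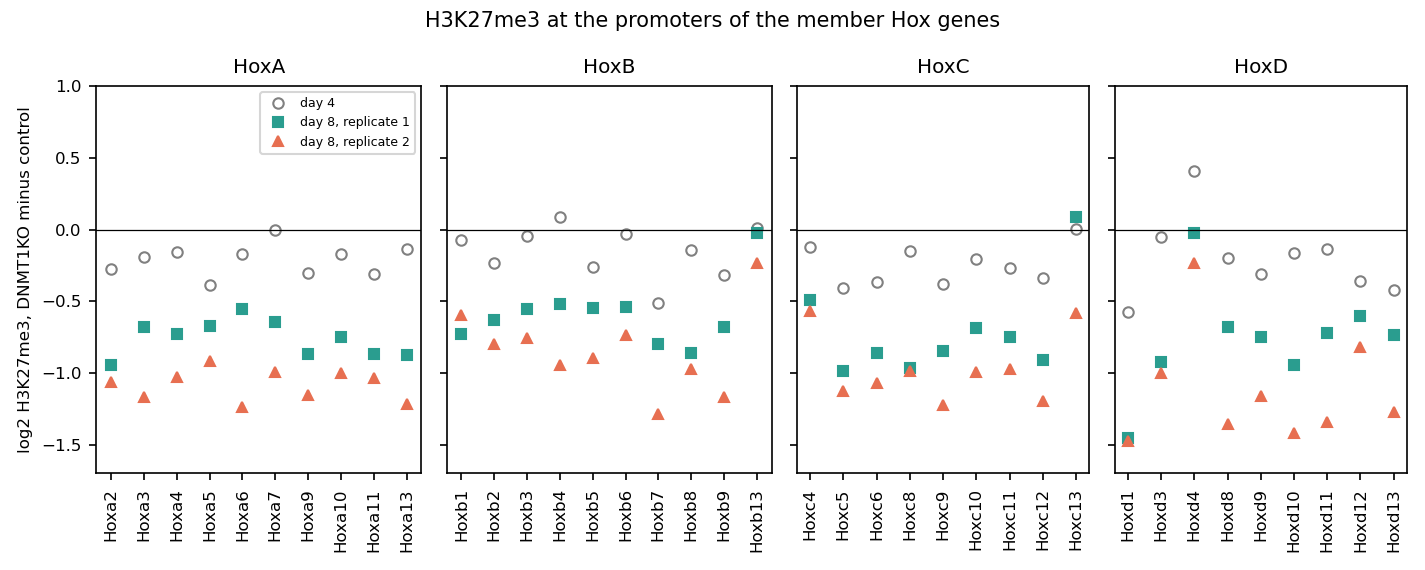
H3K27me3 at the promoters of the 38 Hox genes, as the difference between DNMT1KO and control on the log2 scale (vertical axis) for each replicate pair, with genes along the horizontal axis in one panel per cluster. Day 8 points lie below 0 for all genes but Hoxc13 in replicate 1, and day 4 points lie closer to 0 than most day 8 points.

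By paralog group, the 11 anterior members (groups 1 to 4, which pattern the hindbrain and neck) had a summed control level of 4.17 ± 0.27 and a day 8 difference of −0.79 ± 0.12. The 11 central members (groups 5 to 8, of the thoracic region) had the highest level, 4.92 ± 0.26, with a difference of −0.89 ± 0.22. The 16 posterior members (groups 9 to 13, of the lumbar to caudal region, the limbs and the urogenital tract) stood at 4.74 ± 0.24 and differed by −0.87 ± 0.26. The blocks therefore differed in level, with the anterior block lowest in each control library, and their differences between genotypes lay within the spread of the 2 replicates. Among the anterior genes the range was −1.47 to −0.13, both ends in HoxD, among the central genes −1.06 to −0.64, and among the posterior genes −1.18 to −0.13.

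In HoxA all 10 members had both DNMT1KO libraries below both controls, with differences of −1.05 to −0.79. Hoxa13, the last gene of the cluster, needed for hands, feet and the genital tract, differed most. Its promoter stood at 5.52 and 4.76 in the day 8 control libraries and at 4.64 and 3.55 in the DNMT1KO libraries, a difference of −1.05 ± 0.24, with 4.80 and 4.66 at day 4. The highest DNMT1KO library was thus below the lowest control library, by less than the control libraries differed from each other. The Hoxa13 promoter tile has 189 CpG sites, and after correction of each library for GC content its difference was 0.31 ± 0.08, the only member whose mean changed sign under the 5 other settings tried for single promoters.

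Hoxa5, which acts in lung and cervicothoracic patterning, differed least in HoxA: 4.94 and 4.34 in control, 4.27 and 3.42 in DNMT1KO, −0.79 ± 0.17. Hoxa11, a gene of the forearm and uterus, had the highest control level of the cluster: 5.90 and 5.45 in control against 5.03 and 4.42 in DNMT1KO, −0.95 ± 0.12. For both genes the 2 groups were apart, and the day 4 libraries were closer together (4.60 and 4.21 for Hoxa5, 5.47 and 5.16 for Hoxa11, control first). Hoxa3 and Hoxa6 share 1 promoter tile (chr6:52162001-52164000), since the long Hoxa3 record starts there, so their values of −0.92 ± 0.34 and −0.89 ± 0.48 are not independent.

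HoxB held the most strongly marked promoter and one of the 2 smallest differences of all members. Hoxb8, known for its part in haematopoietic progenitors and microglia, stood at 6.22 and 5.83 in the day 8 control libraries and at 5.36 and 4.85 in the DNMT1KO libraries, a difference of −0.91 ± 0.08. Its neighbour Hoxb7, a gene of the thoracic group, differed most in the cluster, from 6.17 and 5.65 to 5.38 and 4.36, or −1.04 ± 0.35. Both genes had groups that did not overlap. A second annotated start of Hoxb7 lies 4.46 kb away, so this promoter is that of the longest record only. That record starts at chr11:96145571, past the start of Hoxb8 at chr11:96143219 on the same strand. The Hoxb7 value may therefore reflect the Hoxb8 gene. Hoxb13, a gene of the tail and prostate that lies apart from the rest of the cluster, stood at 4.36 and 3.85 in control and at 4.34 and 3.62 in DNMT1KO, so its groups overlapped and the difference was −0.13 ± 0.15. At day 4 the Hoxb13 libraries were at 4.05 and 4.06.

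In HoxC, Hoxc5, a gene of the cervical to thoracic region, differed most. Its promoter was at 5.03 and 4.42 in control and at 4.04 and 3.29 in DNMT1KO, a difference of −1.06 ± 0.10 with groups apart. Hoxc12, one of the posterior members, had the highest control level and nearly the same difference: 5.58 and 5.12 in control, 4.67 and 3.92 in DNMT1KO, −1.05 ± 0.20. Hoxc13, which controls hair and nail differentiation, was the least marked member of HoxC, at 3.13 and 3.0 in control and at 3.22 and 2.42 in DNMT1KO. Its replicates went in opposite directions (0.09 and −0.58), and its difference of −0.25 ± 0.47 was within their spread. Over the Hoxc13 gene body, however, the difference was −0.89 ± 0.20.

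HoxD held the largest difference of all members and, with Hoxb13, one of the 2 smallest. Hoxd1, which acts in sensory neurons, held 261 reads in control and 148 in DNMT1KO at day 4, 343 and 121 in replicate 1 at day 8, and 230 and 97 in replicate 2. Its level was 4.54 and 3.87 in control and 3.08 and 2.39 in DNMT1KO at day 8, a difference of −1.47 ± 0.01, and at day 4 the levels were 4.0 and 3.43. limma-voom called this promoter and limma did not (adjusted p = 0.178), and after GC correction the difference was −0.31 ± 0.18, so its size depended on that choice.

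Hoxd4, a hindbrain and neck gene that responds to retinoic acid, held 255 and 285 reads at day 4, 315 and 300 in replicate 1 and 286 and 286 in replicate 2, control first. Its levels overlapped, at 2.87 and 2.63 in the day 8 control libraries and 2.84 and 2.40 in the DNMT1KO libraries, with a difference of −0.13 ± 0.15. It was also the least marked promoter of all members and has the CG-poorest run of those printed above. A second annotated start of Hoxd4 lies 5.10 kb away, so this promoter is that of the longest record only. Hoxd9, a lumbosacral and limb gene, had the highest control level of HoxD, 5.81 and 5.46, against 5.06 and 4.31 in DNMT1KO, a difference of −0.96 ± 0.29 with groups apart.

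The choice of start mattered for other members as well. Only 17 of 38 have a single annotated start, and 13 have another more than 2 kb away, as far as 40.7 kb for Hoxa3, 33.7 kb for Hoxd3 and 20.4 kb for Hoxb3. Taken over whole gene records, all 38 members were lower at day 8, by −1.13 to −0.10 in the mean. Tiles that overlap a member gene differed by −0.83 ± 0.20 and the 123 tiles of the clusters that overlap none by −0.67 ± 0.17, from control levels of 4.51 ± 0.24 and 3.71 ± 0.16.

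H3K9me2 was below input over every cluster in control cells, and the day 8 DNMT1KO libraries differed from each other. The control level was −2.21 in HoxA, −1.66 in HoxB, −1.42 in HoxC and −1.29 in HoxD. The 4 clusters held 1141 reads in control and 1898 in DNMT1KO at day 4, 1497 and 1254 in replicate 1 at day 8, and 1222 and 3627 in replicate 2. Scaled to depth, the difference was 0.29 at day 4, −0.03 in replicate 1 and 1.08 in replicate 2, a mean of 0.53 ± 0.79. At day 4 DNMT1KO was higher in each cluster, by 0.15 to 0.36. In the first day 8 pair HoxB differed by 0.26 (counting limits of 0.07 to 0.44), and HoxA, HoxC and HoxD by −0.26, −0.19 and −0.12. Over the 4 clusters together the first day 8 DNMT1KO library was at 0.295 of the input level and the day 8 controls at 0.301 and 0.335. Only the second DNMT1KO library was higher there, at 0.710. It was higher in each cluster, by 1.55 in HoxA, 1.09 in HoxB, 1.03 in HoxC and 0.81 in HoxD against the second control, and also over other places: 1.44 in the tiles outside Hox with as much H3K27me3 as the Hox clusters, and 0.74 as the median of all promoters.

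limma called 0 Hox tiles, 0 windows and 0 promoters for H3K9me2 (0% of all tiles, windows and promoters). limma with a trend and limma-voom called 0 as well. In limma 41 of 290 tiles, 5 of 58 windows and 2 of 38 promoters had an unadjusted p under 0.05, all higher. The shares over the genome, in either direction, were 5.68% of tiles, 7.25% of windows and 4.78% of promoters. Leaving out the first DNMT1KO library gave 34 called Hox windows, all higher, where 3.22% of all windows were called higher, and leaving out any other library gave 0. In 15 of 38 promoters both DNMT1KO libraries lay above both controls, against 30.7% of all promoters, and in 0 below, against 6.33%. The promoters held a median of 3 reads or fewer in the day 8 libraries other than the second DNMT1KO library, where it was 13.5. At this depth single promoters could not be compared: Hoxc10, with the largest positive difference, held 0 and 0 reads in control and 6 and 11 in DNMT1KO, and Hoxb2, with the largest negative one, 3 and 7 against 0 and 18.

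H3K9me3 was also below input, and its difference over the 4 clusters together was within the spread of the replicates. The clusters held 2275 reads in control and 2948 in DNMT1KO at day 4, 2299 and 681 in replicate 1 at day 8, where the DNMT1KO library was the shallow one, and 2094 and 2340 in replicate 2. The differences were 0.03 at day 4 and −0.03 and 0.15 at day 8, a mean of 0.06 ± 0.13. In HoxB the DNMT1KO libraries were higher at each comparison, by 0.10 at day 4 and 0.08 and 0.19 at day 8 (0.13 ± 0.08), and the day 8 groups did not overlap, as they did in the other clusters. The counting limits of the HoxB difference, for counting error only, were −0.13 to 0.28 in replicate 1 and 0.05 to 0.33 in replicate 2. In HoxC the replicates went in opposite directions, by −0.28 (counting limits of −0.56 to −0.01) and 0.24 (0.05 to 0.42). limma called 0 Hox tiles, 0 windows and 0 promoters (0% of all tiles, windows and promoters). limma with a trend and limma-voom called 0 as well. In limma 10 tiles were lower and 13 higher at an unadjusted p under 0.05, 1 window lower and 3 higher, and 2 promoters lower and 3 higher. The shares over the genome, in either direction, were 6.24% of tiles, 13.2% of windows and 4.92% of promoters. Leaving out the second DNMT1KO library, which left the shallow one alone, gave 16 called tiles of 290, 7 lower and 9 higher, against 6.07% of all tiles, and 5 called windows of 58, against 8.60% of all windows. Leaving out the shallow one gave 4 called tiles, all lower, where 0.422% of all tiles were called lower. With the shallow library alone 4 of 38 promoters were called, against 5.17% of all promoters, Hoxc8, Hoxa10 and Hoxa11 lower and Hoxd10 higher, of which Hoxc8 and Hoxa11 are named after their values were seen. Both DNMT1KO libraries lay above both controls in 10 of 38 promoters, against 18.3% of all promoters, and below in 6, against 18.5%. The extremes rested on few reads: Hoxd10 held 5 and 2 in control against 5 and 13, and Hoxa10 14 and 10 against 0 and 6.

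Strongly marked tiles elsewhere in the genome were also lower in H3K27me3. The comparison set was the 1% of tiles with the most H3K27me3 in the day 4 control library outside the clusters, without the 1% of tiles highest in input, 13060 tiles in all. Their summed difference was −0.19 at day 4 and −0.66 and −0.85 at day 8, a mean of −0.75 ± 0.14, beside −0.78 ± 0.18 over the Hox clusters. The day 4 value of this set rests on the library that chose it. The 1006 tiles outside Hox that were at or above the median Hox tile at day 4 differed by −0.28, −0.86 and −1.19, a mean of −1.03 ± 0.23, and held a median of 87 CpG sites. The Hox difference thus lay within the replicate spread of the first set. With the tiles highest in input kept in, the 13358 strongly marked tiles differed by −0.59 and −0.73 at day 8, a mean of −0.66 ± 0.10. The Hox difference lay outside that spread and was the larger in both replicates. Compared with the 1006 tiles, the Hox difference was smaller in both replicates. No test was made with 2 pairs.

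As shares of all reads, the Hox clusters took 0.383% of the H3K27me3 reads in control and 0.342% in DNMT1KO at day 4. At day 8 the shares were 0.495% and 0.315% in replicate 1 and 0.383% and 0.203% in replicate 2, with 0.0225% in the input. The 13060 strongly marked tiles outside went from 12% to 7.61% and from 9.02% to 5.00% in the same pairs.

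**Figure D5:**
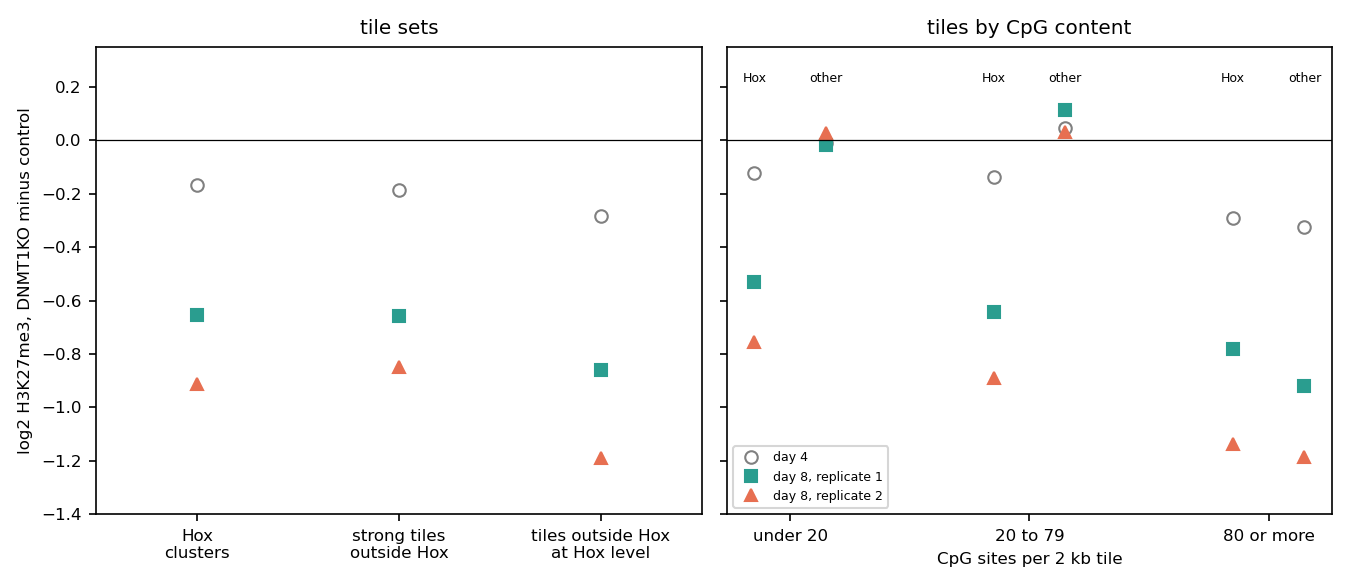
H3K27me3 difference between DNMT1KO and control (log2, vertical axis) for the Hox clusters and for comparison sets of tiles outside them (left panel) and for Hox and other tiles by number of CpG sites (right panel), with 1 point per replicate pair at day 4 and day 8. The Hox clusters at −0.65 and −0.91 sit beside the strongly marked tiles outside them, without the 1% of tiles highest in input, at −0.66 and −0.85.

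Most other listed promoters that carry H3K27me3 also had lower values in DNMT1KO. Of 49 homeobox and Pax genes outside the clusters, all stood 4-fold or more over input in control and 46 had both DNMT1KO libraries below both controls, with a median difference of −0.99. For this and the following lists, the share of all promoters in that position was 42.0%, and limma-voom called 8.56% and limma with a trend 5.36% of all promoters. Irx5, a patterning gene of heart and retina, had the largest difference (−1.77 ± 0.45, called by limma-voom with an adjusted p of 0.004 and by limma with a trend with 0.045), and Pax8, a thyroid and kidney factor, the smallest (−0.21 ± 0.08). Of the 6 ParaHox genes, evolutionary sisters of the Hox genes, 5 were apart, with a median of −0.81, from Gsx1 (−0.99 ± 0.11) to Pdx1 (0.07 ± 0.16). Evx1 and Evx2, which neighbour HoxA and HoxD, were apart as well, at −1.09 ± 0.20 and −1.06 ± 0.26. limma without a trend called 0 promoters in each of these lists.

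Genes that act with or upstream of the Hox proteins were marked less. Of the 9 TALE cofactors, 7 were apart, with a median difference of −1.0 from a median level of 1.64, and limma-voom and limma with a trend each called Pbx3 (−1.58, adjusted p = 0.001 by voom) and Meis1 (−1.52, adjusted p = 0.007 by voom), both DNA-binding partners of Hox proteins, which were named after their values were seen. Pknox1 had the largest difference, −2.17 ± 2.15, with 10 and 5 reads in control against 6 and 0, and Pbx4 the smallest, −0.17 ± 0.20. Of 7 retinoid genes 2 were apart, with a median difference of −0.16, from Aldh1a2, which makes retinoic acid (−1.23 ± 0.08), to Cyp26b1, which degrades it (−0.06 ± 0.26). limma without a trend called 0 of the TALE cofactors and 0 of the retinoid genes.

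Of 18 PRC1 genes 11 were apart, with a median difference of −0.65 from a median level of 0.54. limma-voom called 4 lower, Ring1, Pcgf1, Pcgf2 and Yaf2, and limma with a trend Pcgf1 and Yaf2, all named after their values were seen. Bmi1 differed most (−1.47 ± 0.60) and Pcgf5 least (0.70 ± 0.79). Of 11 PRC2 genes, whose promoters carry little of the mark (median level −1.39), 5 were apart, a share close to the 42.0% of all promoters, and their extremes, Rbbp4 at −1.4 ± 1.24 and Phf1 at 0.07 ± 0.43, rested on 1 to 14 reads per day 8 library. limma-voom called 1 of them, Aebp2 (−1.20, adjusted p = 0.015), named after its values were seen. limma without a trend called 0 in both lists.

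Marker promoters of the cell state were described in the same way. Of 14 pluripotency genes 2 stood 4-fold or more over input in control, with a median level of −0.03, and of 10 somatic lineage genes 9 did, with a median of 4.53, so silent lineage genes carried the mark and pluripotency genes mostly did not. Of the 14, 6 were apart and lower in DNMT1KO, a share close to the 42.0% of all promoters, with a median of −0.64, and limma-voom and limma with a trend each called Klf2, Klf4 and Tbx3 as lower, of which Klf2 and Tbx3 are named after their values were seen. Klf4 differed most (−1.93 ± 0.88) and Dppa4 least (0.33 ± 0.40, on 2 to 4 reads). Of the 10 somatic genes 8 were apart, with a median of −0.97, from Gata6 (−1.22 ± 0.33) to Gata4, both endoderm and heart factors, which went the other way (0.88 ± 0.46). limma without a trend called 0 of either list. The part of cell state in the Hox differences was not tested.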

How the data were processed

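Mouse ESCs were profiled by ChIP-seq for 3 histone marks, with 1 input library. Per the methods of the study, reads were trimmed with Trim Galore and mapped with Bowtie2 (version 2.2.9 per the submitters' processing notes) to NCBIM37, and reads with a MAPQ under 20 were discarded. Removal of duplicate reads is not given in the sources used here. The authors deposited log2 observed over expected reads per tile, relative to an even spread of a library's reads. The methods describe 1 kb tiles, but the table holds 2 kb tiles. An empty tile is written as 0.9 read, and all values came out as whole reads within 0.01 read, so reads were recovered. Duplicated fragments are not independent, so counting limits cover counting error only.

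Levels were computed from summed reads with 0.5 read added and set against the input. GENCODE M1 genes on NCBIM37 gave positions. Sequences were read from NCBIM37. Day 8 libraries were compared mark by mark, 2 against 2, using limma 3.58.1 under R 4.3.3 on all tiles, 10 kb windows or promoters with a read in at least 1 of the 4 libraries, two-sided, with Benjamini-Hochberg adjustment and a threshold of 0.05. The test was checked on simulated promoter reads with independent noise at each promoter. Over the Hox clusters the day 8 H3K27me3 libraries also shifted together, by 0.37 between the controls and 0.63 between the DNMT1KO libraries (log2). The simulation held no such shift, so it does not vouch for the test on these data. Regions were compared as mean ± SD over the 2 pairs of like replicate number, without a test. Day 4, with 1 library per group, was described only. Values in every library were given for the member of each cluster with the largest and the smallest H3K27me3 promoter difference at day 8 and for the one with the highest control level, and the extremes were named for each gene list. The members, lists and rules were chosen with earlier results of these data known, and lists served as descriptions only. Of 12 somatic lineage genes, 10 matched the annotation. Alternatives were a variance trend, voom, a replicate block, centring, GC correction, a read minimum, each library left out, other promoter definitions and tile means.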

Additional observations from a re-analysis of the deposited data

Results flagged for a closer look

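The promoters of Hoxb4, Hoxb13 and Hoxd4 had a higher H3K27me3 level in DNMT1KO than in control at day 4 and a lower one in both day 8 replicates, and this opposite direction drew attention to them. The day 4 differences were 0.0867 for Hoxb4, 0.0137 for Hoxb13 and 0.404 for Hoxd4, against day 8 means of −0.73 ± 0.30, −0.13 ± 0.15 and −0.13 ± 0.15. The difference between the days was not tested, since day 4 has 1 library per group.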

How the results depend on the processing

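Of 152 alternative values of the reported regions and counts, 136 stayed within the spread of the replicates or, for counts, within 1.5 times, 9 counts of calls rose above 0, 7 values moved by more than their spread and 0 calls were lost. Of the 136, 3 changed sign: without replicate 2 the H3K9me2 difference was −0.03 and the H3K9me3 difference −0.03, and the GC-corrected H3K9me3 difference was −0.04. limma-voom gave 1 called tile and 1 called promoter for H3K27me3. With means of the deposited tile values the HoxB difference was −0.52, the day 4 H3K27me3 difference −0.12 and the day 4 H3K9me2 difference 0.42, and the control levels were −2.05 for H3K9me2 and −1.05 for H3K9me3. The GC-corrected day 4 H3K27me3 difference was −0.14. Centring on 100 kb medians gave an H3K27me3 level of 4.48. The cause of these shifts was not tested.

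Leaving out each library in turn, called Hox windows ranged from 0 to 32 for H3K27me3, from 0 to 34 for H3K9me2 and from 0 to 5 for H3K9me3, called tiles from 0 to 16 for H3K9me3, and called promoters from 0 to 3 for H3K27me3 and from 0 to 4 for H3K9me3. A fit that leaves an arm with 1 library assumes that it varies like the others. Leaving out each pair, the H3K9me2 difference ranged from −0.03 to 1.08.

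For single member promoters, centring, tile means, the gene body and a promoter on either side of the start kept all 38 differences negative. GC correction by tile kept 37, turned Hoxa13 and moved 10 by more than 1 SD, such as Hoxa4 from −0.88 to −0.38, with a median of −0.87. GC correction across promoters in limma gave a median of −0.42 and left 1 member at an unadjusted p under 0.05, where 12 had one without it.

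Deviations from the group mean of libraries with the same replicate number correlated over 100 kb windows with r = 0.60 for H3K27me3, 0.37 for H3K9me2 and 0.25 for H3K9me3. With 2 pairs and no label of a shared batch, the number does not count as a pairing. The fit with a replicate block called 0 Hox tiles, windows and promoters for each mark. Few reads at single promoters limit both H3K9 marks.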
